A study of Homo sapiens with 6 samples.

Results

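The CCN genes encode a family of 6 secreted, cysteine-rich matricellular proteins. Their expression was measured in HCC827, an established line of human lung adenocarcinoma whose EGFR gene has an activating deletion. The genes were taken from the table of 28395 genes by their older symbols, CYR61 (CCN1), CTGF (CCN2), NOV (CCN3), WISP1 (CCN4), WISP2 (CCN5) and WISP3 (CCN6), and all 6 were found. Of these, 4 had a mean signal of at least 10 and entered the comparison of 14215 genes, and WISP1 and WISP3 did not. RNA was sequenced in 3 libraries of cells given the vehicle DMSO and 3 libraries of cells given 1 μM erlotinib, an inhibitor of the EGFR kinase, both for 24 h. All libraries come from the same line in the same medium with fetal bovine serum, so the responses are those of a single cancer line in serum. The libraries held between 20760204 and 24641819 reads on genes, recovered from the deposited values, and the erlotinib libraries are numbered 4 to 6 here as in the table. Signal below means reads divided by the size factor of the library. The labels do not say whether the libraries came from separate cultures, so that p-values measure the spread between these libraries.

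CCN proteins are built from an IGFBP-like module, a von Willebrand factor type C module, a thrombospondin type 1 module and a C-terminal cystine knot. WISP2 is the member that lacks the cystine knot. They act at the cell surface through integrins, heparan sulfate proteoglycans and LRP receptors rather than as structural matrix. CYR61 and CTGF are induced within minutes by serum and growth factors and are the most used reporters of YAP/TAZ, the co-activators that bind TEAD factors when the Hippo kinases are inactive. The study measured both as readouts of YAP/TAZ activity under EGFR. In HCC827 it did so by PCR after a treatment with erlotinib shorter than 24 h. It also listed both among the genes suppressed in its RNA sequencing at 24 h. The comparison here covers RNA levels at 24 h, and YAP/TAZ activity itself was not measured in these libraries. In the lung, CTGF is best known for its part in fibrosis, and the WISP genes were named for their induction by WNT1.

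The gene models reflect the shorter build of WISP2. Its coding sequence has 250 codons, of which 29 encode cysteine, against 381 codons with 38 for cysteine in CYR61 and 349 codons with 39 for cysteine in CTGF (canonical transcripts of GENCODE release 44). NOV has 357 codons, WISP1 367 and WISP3 354, with 41, 38 and 36 for cysteine. On GRCh38, CYR61 lies on chromosome 1 (85580761 to 85583950, plus strand), CTGF on chromosome 6 (131948176 to 131951372, minus strand) and WISP2 on chromosome 20 (44714861 to 44727811, plus strand). NOV (119416446 to 119424434) and WISP1 (133191039 to 133231690) both lie on the plus strand of chromosome 8, and WISP3 on the plus strand of chromosome 6 (112052813 to 112069686). By these RefSeq coordinates CYR61 and CTGF are compact genes, with 5 exons within 3190 and 3197 bases, whereas the 4 exons of WISP2 are spread over 12951 bases and the shortest measures 82 bases.

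The RefSeq promoter table of GRCh38.p14 held 2 of the 6 genes, CTGF and WISP3. The CTGF promoter is shown because the study used CTGF as a readout of YAP/TAZ and TEAD, and because this gene fell with erlotinib. The 250 bases before its start, chr6:131951373-131951622 on the minus strand, are printed 5′ to 3′, with capitals for the letters GGAATG, the core of the TEAD motif, and for TATAAA.

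CTGF: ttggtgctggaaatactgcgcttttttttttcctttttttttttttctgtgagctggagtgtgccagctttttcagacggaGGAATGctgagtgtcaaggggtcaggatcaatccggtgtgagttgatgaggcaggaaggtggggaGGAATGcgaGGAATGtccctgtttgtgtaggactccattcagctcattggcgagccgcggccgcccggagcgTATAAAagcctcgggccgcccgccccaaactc

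GGAATG occurred 3 times in this window, with its first base 169, 104 and 95 bases before the start, and TATAAA began 32 bases before it. Searched on both strands of windows of 300 bases, which run to 50 bases after the start, GGAATG was found in 14.03% of the 35116 promoters in the table and 3 or more times in 0.128%. TATAAA was found in 11.5% of them. The SMAD motif CAGAC, found in 45.3% of promoters, occurred 1 time in that of CTGF. The AP-1 motif TGANTCA (7.71% of promoters), the CArG box bound by SRF (1.29%) and the TCF motif CTTTGAT (2.62%) were not among the letters of this window. The promoter of WISP3, a gene with almost no reads, held GGAATG 1 time on each strand. A match of letters is a description of the window and does not show that a factor binds there.

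The members of the family were present at very unequal levels and moved in opposite directions with erlotinib. CYR61 was by far the most abundant and fell to 75.0% of its DMSO signal, CTGF fell to 35.2%, and WISP2 rose 15.4-fold. NOV did not pass the test, and WISP1 and WISP3 were at the limit of detection in both conditions. With the adjusted p-value of limma held to 0.05, 2 of the 4 tested members were lower, where 35.4% of all tested genes were lower, and 1 was higher, where 35.3% were higher. All 4 had a mean signal above 10 in both groups. Of all tested genes, 627 were below 10 in DMSO and entered through the erlotinib libraries (472 of them higher, 0 lower), and 166 entered through the DMSO libraries (99 lower, 0 higher). In all 4 members the DMSO and erlotinib libraries did not overlap in signal, which was also the case for 73.6% of all tested genes. With so large a share of the transcriptome changed, these counts are close to the background, and the members are described by the size of their changes. In RNA from whole cultures, fewer cells that express a gene and less RNA per cell cannot be told apart.

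**Figure D1:**
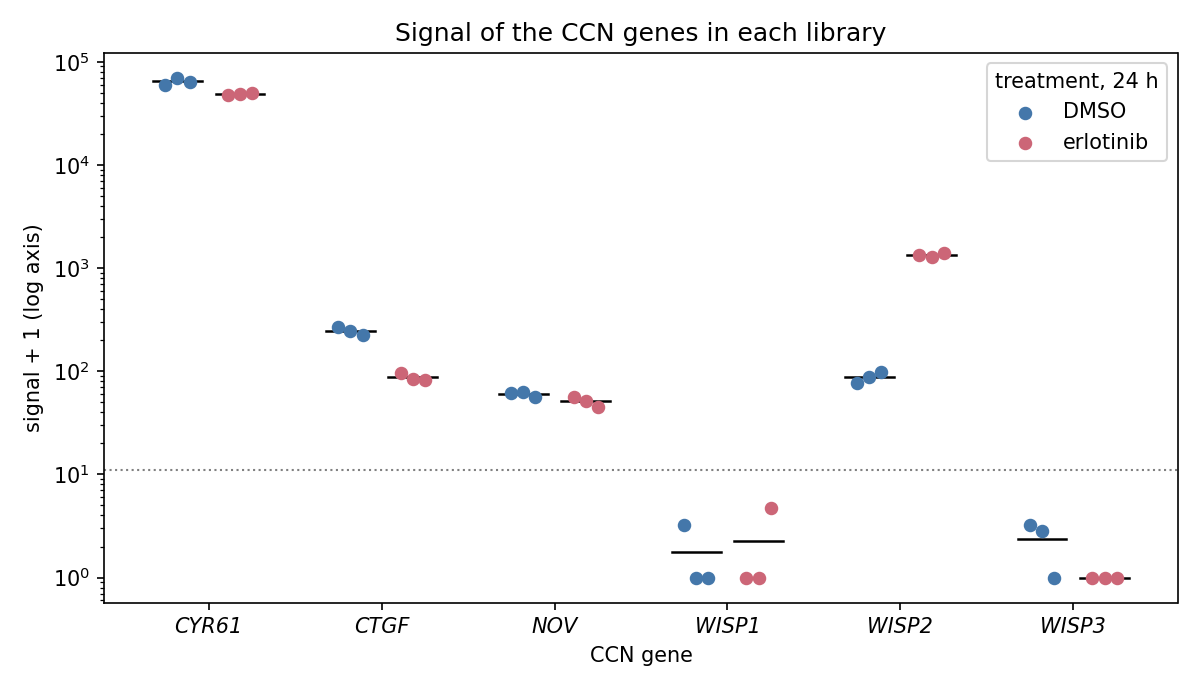
Signal + 1 (log axis) of the 6 CCN genes in each library, with DMSO in blue and erlotinib in red, and the group mean as a black line. The dotted line marks the mean signal of 10 needed to enter the test. CYR61 lies far above the other genes, WISP2 is the gene whose erlotinib libraries lie above its DMSO libraries by more than 10-fold, and WISP1 and WISP3 lie below the dotted line.

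CYR61, a ligand of several integrins that promotes adhesion, migration and angiogenesis, had a signal of 60170, 69646 and 64303 in the DMSO libraries and of 48060, 48236 and 49333 in the erlotinib libraries. All erlotinib libraries were below the lowest DMSO library, and they lay closer together than the DMSO libraries did. The group means were 64706 ± 4751 and 48543 ± 689.6 (SD, n = 3 each), and the log2 fold change was -0.41 (standard error 0.07, 95% confidence interval -0.56 to -0.27, adjusted p = 2.0e-05, limma). Counting error alone would give a spread of 0.399% between DMSO libraries, against the 7.34% observed, so depth did not limit this value. Scaling each library to its total count, under which the median log2 fold change of all genes was 0.19 instead of 0.02, gave -0.23 for CYR61 (adjusted p = 0.0044). By that scaling 3955 genes were lower and 6156 higher, against 5031 and 5012 in the main comparison. Of all tested genes, 30.2% had a log2 fold change below that of CYR61.

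CTGF, a matrix-bound adapter for growth factors such as TGF-beta, stood at a signal of 267, 246 and 225 in the DMSO libraries and at 96.0, 83.2 and 80.5 in the erlotinib libraries. Every erlotinib library lay far below the lowest DMSO library, and the groups did not overlap. The means were 246 ± 20.9 and 86.5 ± 8.27 (SD, n = 3 each), with a log2 fold change of -1.50 (95% confidence interval -1.85 to -1.14, adjusted p = 9.7e-08, limma). These values rest on 710 reads in the 3 DMSO libraries together and 274 in the erlotinib libraries, and the spread of 8.51% between DMSO libraries was close to the 6.50% that counting error gives. Of all tested genes, 5.15% had a lower log2 fold change than CTGF.

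The fall of CTGF was the larger of the 2. Within a library, the signal of CYR61 was 226 to 286 times that of CTGF in DMSO and 501 to 613 times with erlotinib, and these ranges did not overlap. The mean ratio went from 265 ± 34.0 to 565 ± 57.6 (SD, n = 3 each; two-sided exact permutation test, p = 0.10, the smallest that 3 against 3 libraries can give). For the 4 ratios between members compared in this way, Benjamini-Hochberg adjustment left each p at 0.10.

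WISP2, which restrains the growth of smooth muscle cells and is secreted by fibroblasts and fat cell precursors, was the member that rose. A published set of YAP-induced genes that the study used on a panel of cancer cell lines holds WISP2 along with CYR61 and CTGF. The part of YAP/TAZ in the rise of WISP2 was not tested. The signal of WISP2 was 76.0, 87.3 and 97.4 in DMSO and 1335, 1280 and 1398 with erlotinib. The lowest erlotinib library stood more than 10-fold above the highest DMSO library. The means were 86.9 ± 10.7 and 1338 ± 59.3 (SD, n = 3 each), from 252 and 4234 reads. The log2 fold change was 3.94 (standard error 0.12, 95% confidence interval 3.68 to 4.195, adjusted p = 2.5e-16, limma), the 99th largest rise of 14215 genes. Within a library, WISP2 had 0.285 to 0.433 times the signal of CTGF in DMSO and 13.9 to 17.4 times that signal with erlotinib. The ratio of WISP2 to CTGF thus rose 43.5-fold between conditions (two-sided exact permutation test, p = 0.10, the smallest possible), and CTGF gave way to WISP2 as the member with the next highest signal after CYR61.

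NOV, a member that often opposes the growth-promoting effects of CYR61 and CTGF, reached a signal of 60.1, 62.2 and 55.7 in the DMSO libraries and of 55.4, 50.5 and 43.995 in the erlotinib libraries. The groups just failed to overlap, with erlotinib library 4 next to DMSO library 3. The means were 59.3 ± 3.35 and 49.95 ± 5.71 (SD, n = 3 each). The log2 fold change was -0.25 (adjusted p = 0.39, limma) with a 95% confidence interval of -0.78 to 0.29. The interval spans ratios of erlotinib to DMSO from 0.581 to 1.22. With 172 and 158 reads, counting error alone gives a spread of 13.2% between DMSO libraries, more than the 5.65% found. The interval of NOV includes the log2 fold change of CYR61, so a fall of that size cannot be told from no change here.

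WISP1, a WNT1-inducible member, had 2, 0 and 0 reads in DMSO and 0, 0 and 4 reads with erlotinib (two-sided exact permutation test, p = 1.0). WISP3, whose loss causes a cartilage disorder of childhood, had 2, 2 and 0 reads in DMSO and none with erlotinib (two-sided exact permutation test, p = 0.40; the smallest possible is 0.10). Exact 95% Poisson intervals were 0.242 to 7.22 reads for WISP1 in DMSO, 1.09 to 10.2 reads for WISP1 with erlotinib and the same for WISP3 in DMSO, and 0 to 3.69 reads for WISP3 with erlotinib. Reads without molecular identifiers do not stand for separate molecules, so these limits account for counting error alone. No fold is given for either gene.

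**Figure D2:**
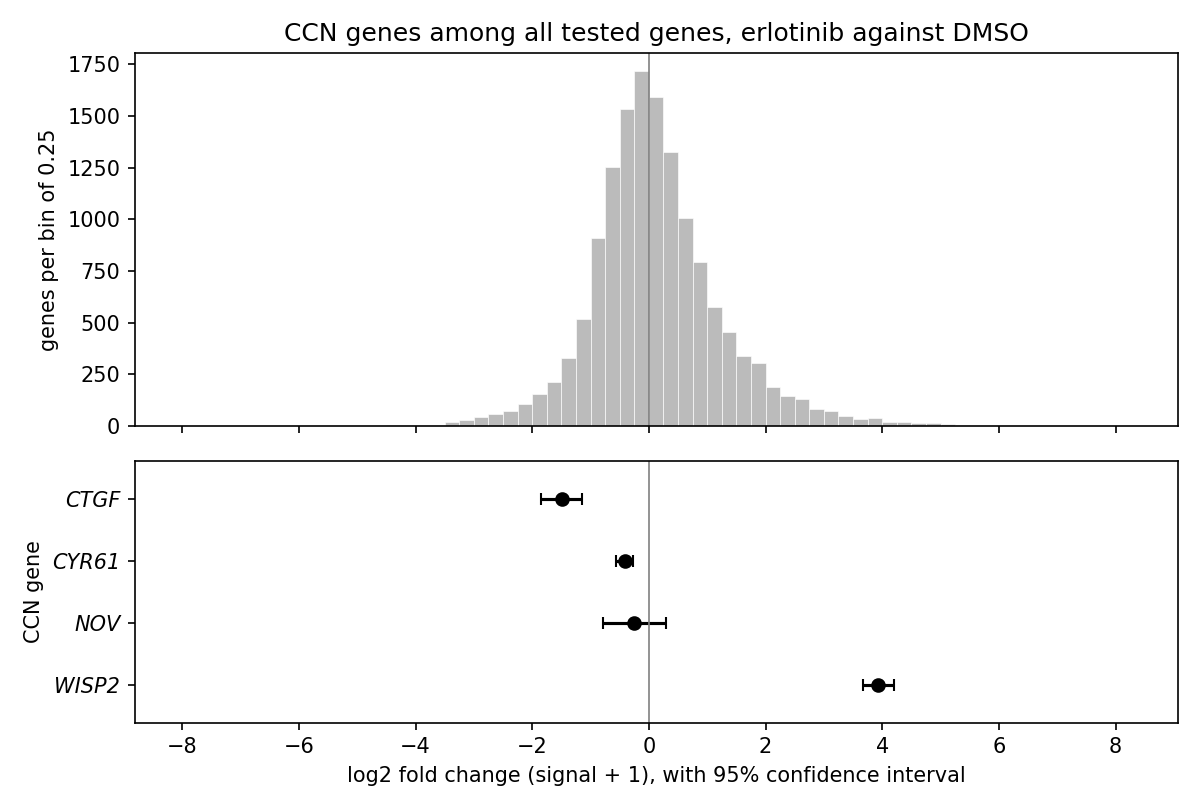
Upper panel, the number of tested genes (n = 14215) in bins of 0.25 of the log2 fold change between erlotinib and DMSO. Lower panel, the log2 fold changes of the 4 tested CCN genes as points with 95% confidence intervals from limma, in which WISP2 (3.94) lies in the upper tail, CTGF (-1.50) in the lower tail, CYR61 (-0.41) near the centre, and the interval of NOV includes 0.

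Levels of different genes were compared as signal per kilobase of the union of a gene's exons in GENCODE. For CYR61 this union (3698 bases) is longer than the RefSeq gene, and it includes 3 transcripts that retain introns, of which the farthest ends at base 85584589. On this scale the summed level of the family was 16425, 18981 and 17525 in the DMSO libraries and 13327, 13356 and 13673 with erlotinib. The share of CYR61 in that sum went from 99.2% ± 0.0910 to 97.6% ± 0.0734 (SD, n = 3 each). It ranked 15th in DMSO and 19th with erlotinib among the 13890 tested genes with a known length. The share of WISP2 went from 0.0989% ± 0.0109 to 2.00% ± 0.0660, and that of CTGF from 0.599% ± 0.0824 to 0.275% ± 0.0292 (SD, n = 3 each). In DMSO the order of levels per kilobase was CYR61 (17498 ± 1285), CTGF (105 ± 8.94), NOV (22.7 ± 1.28) and WISP2 (17.4 ± 2.15), with WISP3 and WISP1 under 1 (SD, n = 3 each). With erlotinib it was CYR61 (13127 ± 186), WISP2 (269 ± 11.9), CTGF (37.0 ± 3.54) and NOV (19.1 ± 2.18). Per kilobase of the exon union, WISP2 was above 20.3% of tested genes in DMSO and above 74.9% with erlotinib, and CTGF above 49.6% and 27.0%. These percentages hold for that length only. Reads were not split across introns in the alignment, so losses at exon junctions may differ between genes. Such losses were not measured, and they limit the order and the shares given here. NOV and WISP2 changed places in DMSO with another choice of length. The exon union of WISP2 (4981 bases) includes transcripts with no defined coding sequence, whose part in that length was not measured. Per kilobase of its canonical transcript of 1279 bases, a length chosen after the values were seen, the level of WISP2 was 67.9 ± 8.37 in DMSO (SD, n = 3), above the 24.1 ± 1.36 of NOV and below CTGF. With erlotinib it was 1046 ± 46.3, or 4.67% of the summed level, and per kilobase of the longest transcript it was 485 ± 21.5, or 2.97% (SD, n = 3 each). The level of CYR61 in DMSO was 28405 ± 2085 per kilobase of its canonical transcript (SD, n = 3). WISP2 ranked after CYR61 with erlotinib by each of these lengths.

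The genes next to the CCN genes are given with their own changes, and no difference between a neighbour and its CCN gene was tested. DDAH1, an enzyme that degrades an inhibitor of nitric oxide synthesis, lies 2.56 kb from CYR61 and had a log2 fold change of -0.16 (adjusted p = 0.025, limma), which was 0.02 with total-count scaling. Its call was lost without erlotinib library 4 (-0.16), 5 (-0.17) or 6 (-0.15), although the change itself hardly moved. ZNHIT6, 65.5 kb away on the other side, fell by 0.32 on the log2 scale (adjusted p = 3.9e-04, limma), or by 0.14 with total-count scaling (adjusted p = 0.080). ENPP1, the tested gene nearest to CTGF, was at 0.02 (adjusted p = 0.96). WISP2 has the potassium channel gene KCNK15 at 18.1 kb, whose signal went from 5.43 ± 3.998 to 23.4 ± 5.71 (SD, n = 3 each), and ADA, which encodes adenosine deaminase, at 63.2 kb (log2 fold change 0.73, adjusted p = 0.0018). KCNK15 entered the comparison through its erlotinib libraries alone, so its difference is given with no test. PKIG, farther away at 95.8 kb and named after its value was seen, had a log2 fold change of 1.05 (adjusted p = 1.4e-07, limma). Of all tested genes, 35.4% were lower and 35.3% higher, so calls among neighbours are common without any link to the CCN genes. NDRG1, 5.49 kb from WISP1, had a signal of 3112 ± 208 and 3191 ± 51.8 (SD, n = 3 each; adjusted p = 0.63). TUBE1 lies 0.977 kb from WISP3 and was lower (-0.75, adjusted p = 0.023), a call lost without DMSO library 2 (-0.43), erlotinib library 5 (-0.53) or erlotinib library 6 (-0.73), with total-count scaling (-0.58) and with no filter. FAM229B, 17.9 kb from WISP3 and also named after its value was seen, went the other way (log2 fold change 0.95, adjusted p = 4.8e-04, limma). The antisense RNA CCN2-AS1 overlaps CTGF, KCNK15-AS1 overlaps WISP2 and LOC102723635 overlaps WISP1. They were not analysed here, and since the strand setting of the counting is not given in the sources used here, their reads cannot be told apart from those of the CCN genes.

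For each tested member, the genes with the nearest profile were found by the root mean square difference of log2(signal + 1), centred on its mean, over the 6 libraries. As the libraries form 2 conditions, likeness mostly means a change of the same size. Nearest to WISP2 were KLHL24 (difference 0.101), TP53INP1 (0.114) and YPEL1 (0.151), with log2 fold changes of 3.91, 3.99 and 4.17. TP53INP1 went from 221 ± 1.201 to 3530 ± 58.7 and YPEL1 from 25.1 ± 5.88 to 463 ± 39.7 (SD, n = 3 each). KLHL24 encodes a substrate adapter of a ubiquitin ligase, and TP53INP1 a stress-induced partner of p53. Nearest to CTGF were SH3KBP1 (0.0520), an adapter in receptor endocytosis, the drug efflux transporter ABCG2 (0.0541) and BTBD11 (0.0699), with log2 fold changes of -1.49, -1.52 and -1.48. Nearest to CYR61 were PDCD10 (0.0256), DNAJC13 (0.0267) and MCIDAS (0.0268), and nearest to NOV were TNFSF15 (0.0442), SLC18B1 (0.0454) and SLC25A46 (0.0475).

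**Figure D3:**
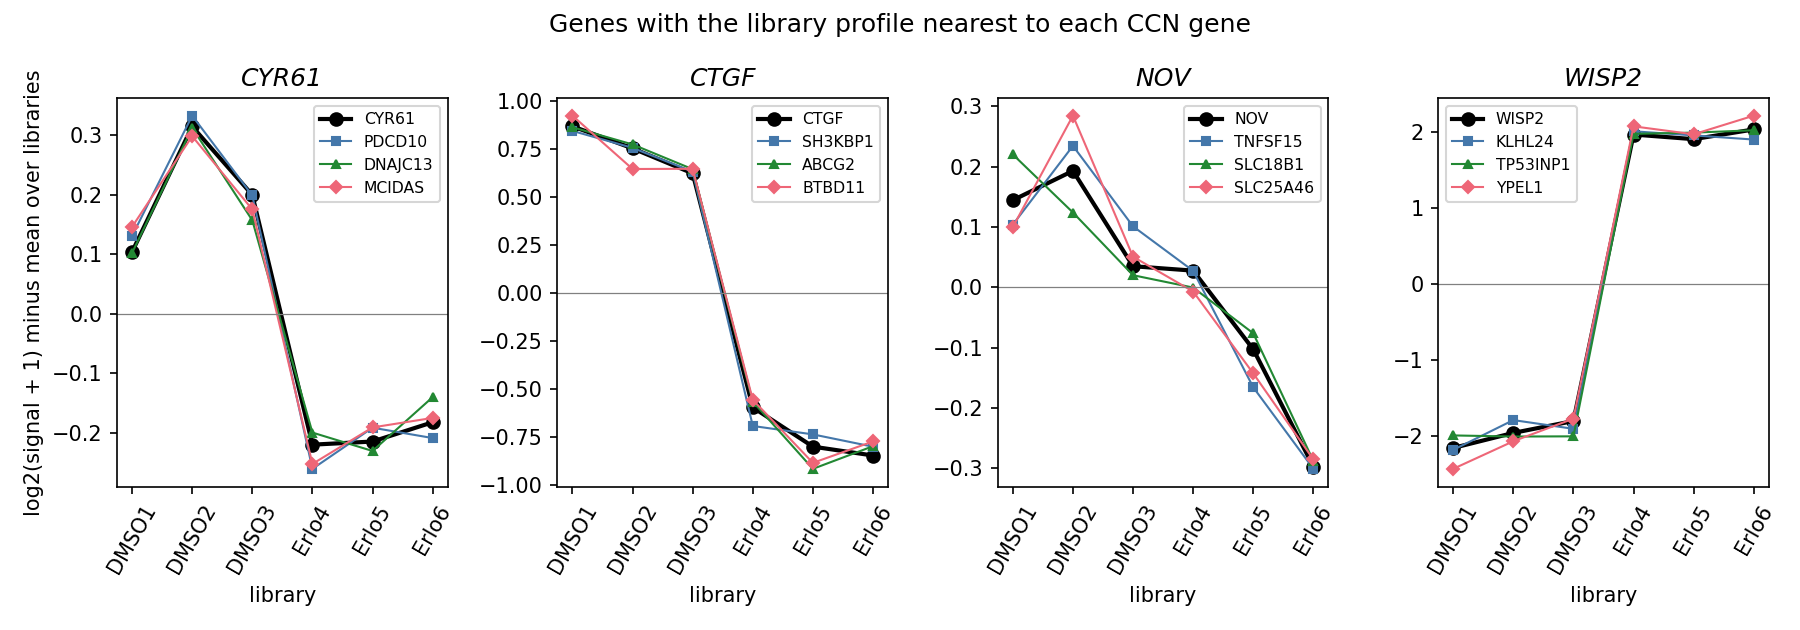
Log2(signal + 1) of each tested CCN gene (black) and the 3 genes nearest to it (coloured), minus the mean over the 6 libraries; each panel has its own scale, and lines join the libraries only to guide the eye. WISP2 and its neighbours rise by about 4 log2 units between DMSO and erlotinib, CTGF and its neighbours fall by about 1.5, and CYR61 and NOV change by less than 1.

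Of 22 listed genes known to regulate CYR61 and CTGF, all tested, 10 were lower, 9 higher and 3 neither by the same threshold (limma), with a median log2 fold change of 0.12, against 0.02 over all tested genes, and with total-count scaling 6 were lower and 12 higher. These shares of 45.5% lower and 40.9% higher were near the 35.4% and 35.3% of all tested genes. WWTR1, which encodes TAZ, fell from 6746 ± 463 to 5118 ± 136 (SD, n = 3 each; log2 fold change -0.40, adjusted p = 2.0e-05), or by 0.22 on the log2 scale with total-count scaling (adjusted p = 0.0065). YAP1 went from 9609 ± 587 to 8497 ± 307 (SD, n = 3 each; log2 fold change -0.18, adjusted p = 0.020), but its change was 0.00 with total-count scaling and did not pass the test without erlotinib library 6 (-0.15, adjusted p = 0.11). The TEAD factor TEAD2 rose by 1.92 from a low level (187 ± 35.2 to 706 ± 60.1, SD, n = 3 each). The more abundant TEAD1 (5328 ± 154 to 4499 ± 103, SD, n = 3 each) had a log2 fold change of -0.24 (adjusted p = 0.0017, limma), which was -0.06 with total-count scaling (adjusted p = 0.36). TEAD4 fell by 0.48 on the log2 scale (adjusted p = 5.0e-04, limma) and TEAD3 rose by 0.59 (adjusted p = 6.1e-05, limma), and these 3 were named after their values were seen. Among ligands, TGFB1 fell by 0.60 while TGFB2 rose by 0.86 and TGFB3 by 1.85 on the log2 scale. A pair of receptors for serum factors that feed into YAP/TAZ and SRF was lower. LPAR1, a receptor for lysophosphatidic acid, went from 167 ± 16.1 to 11.7 ± 3.68 (SD, n = 3 each; log2 fold change -3.76, adjusted p = 4.0e-10, from -3.99 to -3.04 over the alternatives), and the thrombin receptor F2R fell by 0.53 (adjusted p = 1.7e-05). The adjusted p-values of TEAD2, TGFB1, TGFB2 and TGFB3 were at most 8.1e-06 (limma).

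Of 20 listed receptors for CCN proteins, 17 were tested, and 5 were lower, 10 higher and 2 neither (limma), with a median log2 fold change of 0.26 against 0.02 over all tested genes, and with total-count scaling 3 were lower and 11 higher. The background was 35.4% of tested genes lower and 35.3% higher. LRP1, an endocytic receptor that takes up CTGF, rose most, from 100 ± 25.5 to 582 ± 55.9 (SD, n = 3 each; log2 fold change 2.56, adjusted p = 3.1e-11). ITGB6 rose by 1.201 and IGF1R by 0.80 on the log2 scale. Integrin subunits moved both ways. ITGA6, which pairs with ITGB1 in a laminin receptor that CYR61 also binds, fell from 9207 ± 369 to 2335 ± 77.4 (SD, n = 3 each; log2 fold change -1.98, adjusted p = 3.9e-16). ITGB5 fell by 0.55 and ITGA5 by 0.51, whereas ITGAV, the partner of ITGB5 and ITGB6, rose by 0.48. ITGB1 had a log2 fold change of -0.24 (adjusted p = 0.0038), which was -0.06 with total-count scaling (adjusted p = 0.44). LRP6 was at 0.10 (adjusted p = 0.24), and at 0.28 with total-count scaling (adjusted p = 0.0035). The adjusted p-values of ITGB6, IGF1R, ITGB5, ITGA5 and ITGAV were at most 1.8e-05 (limma).

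The next list holds genes for proteins that bind or cut CCN proteins. Of 22 listed, 12 were tested, and 2 were lower, 6 higher and 4 neither (limma), with the same numbers lower and higher under total-count scaling. The median log2 fold change was 0.75, against 0.02 over all tested genes, of which 35.4% were lower and 35.3% higher, and KLK14 entered through its erlotinib libraries alone. MMP7, a matrix metalloproteinase that can cleave CTGF, rose from 35.5 ± 16.0 to 635 ± 33.2 (SD, n = 3 each; log2 fold change 4.21, adjusted p = 9.1e-13). MMP13 rose by 3.50, from 16.9 ± 7.76 to 185 ± 8.05, and FBN1, the gene for fibrillin, by 2.97 (SD, n = 3 each). Over the alternatives the log2 fold change ranged from 2.91 to 3.72 for MMP13 and from 2.31 to 3.16 for FBN1. VEGFA, whose product CTGF binds, fell from 7466 ± 296 to 3376 ± 188 (SD, n = 3 each; log2 fold change -1.15, adjusted p = 2.9e-12).

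Other matricellular genes also split. Of 25 listed, 16 were tested, with 5 lower, 8 higher and 3 neither (limma), and 5 lower and 9 higher with total-count scaling. Of the 8 higher genes, THBS4 and SPARCL1 entered through their erlotinib libraries alone. The median log2 fold change was 0.72, against 0.02 over all tested genes, of which 35.4% were lower and 35.3% higher. TNC, which encodes tenascin-C, fell from 15802 ± 481 to 3784 ± 338 (SD, n = 3 each; log2 fold change -2.07, adjusted p = 5.5e-16). THBS2 fell by 0.78 and PLAUR, the urokinase receptor, by 0.76. THBS3, a thrombospondin, rose from 117 ± 10.2 to 1077 ± 77.5 (SD, n = 3 each; log2 fold change 3.20, adjusted p = 3.3e-15). SPP1, the gene for osteopontin, rose by 3.08 and LGALS3, the gene for galectin-3, by 0.99. The adjusted p-values of MMP13, FBN1, THBS2, PLAUR, SPP1 and LGALS3 were at most 0.0049 (limma).

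**Figure D4:**
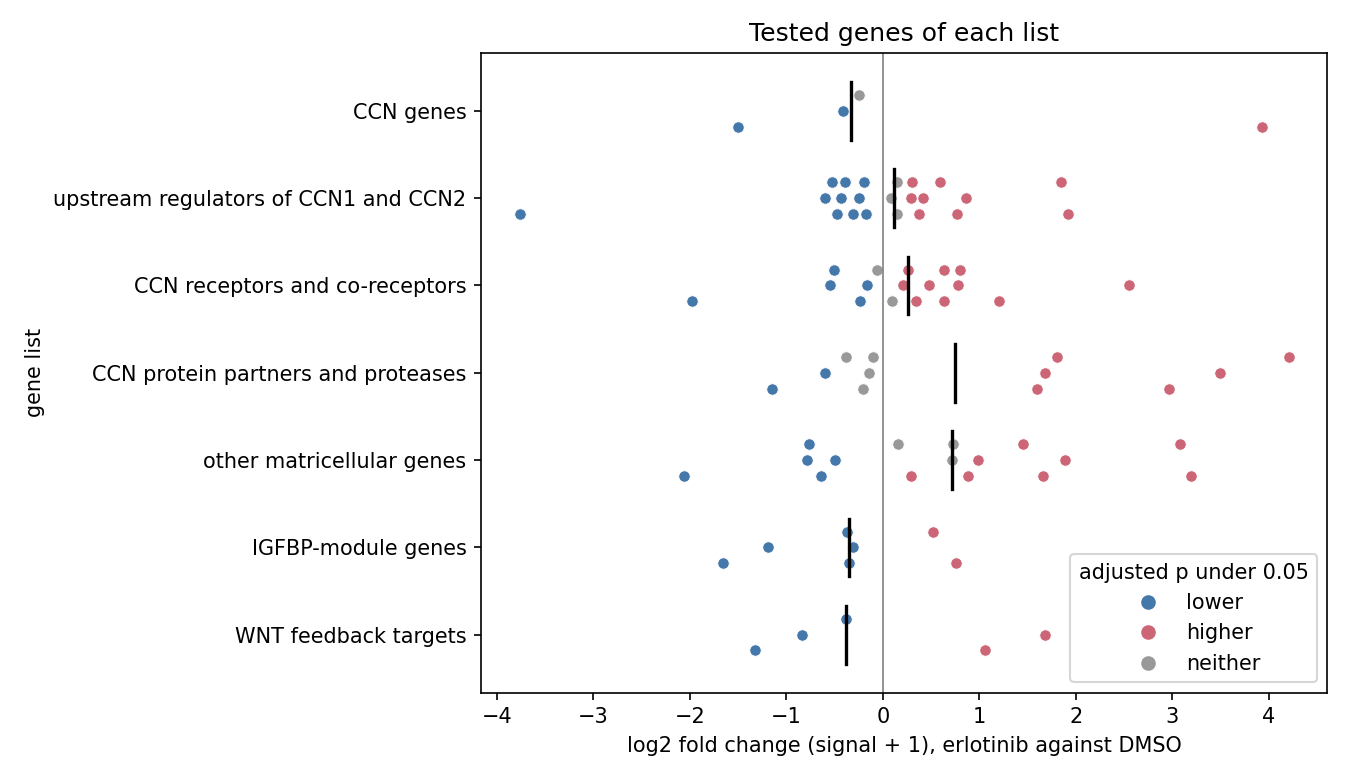
Log2 fold change of each tested gene in 7 lists, with genes lower (blue), higher (red) or neither (grey) at an adjusted p-value under 0.05, and the list median as a black bar; points are spread vertically for clarity. The lists of regulators, receptors, partners and matricellular genes each hold genes on both sides of 0, as the CCN genes themselves do.

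The label of the line was checked against marker genes. All 11 epithelial markers, among them EPCAM, CDH1 and NKX2-1, were tested, and 4 were lower (36.4%), 5 higher (45.5%) and 2 neither (limma), near the 35.4% and 35.3% of all tested genes. With total-count scaling 4 were lower and 6 higher. KRT7, the most abundant, fell from 123686 ± 7643 to 79897 ± 2922 (SD, n = 3 each; log2 fold change -0.63, adjusted p = 1.3e-07, limma), and KRT18 fell by 1.25 on the log2 scale, while NKX2-1 rose by 1.53 and MUC1 by 2.82 (adjusted p at most 1.6e-12, limma). The summed signal of the 11 markers was 319913, 284814 and 310159 in the DMSO libraries and 256227, 260066 and 261103 in the erlotinib libraries. WISP2 and CTGF are typical fibroblast genes, so fibroblast markers were counted as well. Of 13 fibroblast markers, 6 had at most 3 reads in every library, and THY1 and FAP had none. COL1A1, TAGLN and FBN1 were higher (log2 fold changes 1.47, 1.16 and 2.97, adjusted p at most 7.2e-05, limma). COL5A1 (4.94 ± 3.81 and 17.5 ± 3.17, SD, n = 3 each) entered the comparison through its erlotinib libraries alone, and the other 9 markers were not tested. The summed signal of the 13 markers was 157, 153 and 180 in the DMSO libraries and 490, 493 and 461 in the erlotinib libraries. COL1A1, the most abundant, had a signal of 77.7 ± 15.3 and 216 ± 27.9 (SD, n = 3 each). COL1A2, COL3A1, DCN and PDGFRA had at most 3 reads in any library of either condition. LUM had 12 reads in the DMSO libraries together and 40 in the erlotinib libraries, ACTA2 had 14 and 25, and PDGFRB had 5 and 7. Of 8 endothelial markers, 3 had at most 3 reads in every library, and the summed signal was 34.03, 17.6 and 26.8 in DMSO and 58.1, 49.5 and 48.7 with erlotinib. VWF, the most abundant over all 6 libraries, had a signal of 3.94 ± 3.31 and 27.4 ± 6.93 (SD, n = 3 each) and entered the comparison through its erlotinib libraries alone, while CLDN5 and EMCN were at 0. PECAM1, the more abundant of the 2 in DMSO, had a signal of 15.7 ± 3.29 and 10.4 ± 2.20 (SD, n = 3 each; log2 fold change -0.55, adjusted p = 0.35, limma). The summed signal of 8 leukocyte markers was 2913, 2913 and 3308 in DMSO and 3321, 3650 and 3564 with erlotinib. It was nearly all CD68 (mean signal 3146; log2 fold change 0.23, adjusted p = 0.0076, limma), while PTPRC, which marks all leukocytes, had at most 6 reads in any library and MS4A1 none. CSF1R, the other leukocyte marker tested, had a signal of 127 ± 9.01 and 94.3 ± 16.1 (SD, n = 3 each; log2 fold change -0.43, adjusted p = 0.055, limma), and its groups did not overlap. The part of the markers that rose in the result for WISP2 was not tested.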

How the data were processed

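Polyadenylated RNA of HCC827 cells was sequenced in 3 DMSO and 3 erlotinib libraries. The submitters' processing notes name GRCh38, Bowtie2 2.3.4, which does not split reads across introns, featureCounts 1.6.3 and DESeq2 1.18.1. The signal values the authors deposited are gene counts divided by 1 size factor per library (0.882 to 1.08), a division that the notes do not state; all values came out as whole reads within 0.01 of a read. Strand settings are not given in the sources used here.

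The 14215 of 28395 genes whose signal averaged 10 or more were compared with limma 3.58.1 (R 4.3.3) on log2(signal + 1), with treatment as the only term and a trended prior. P-values were two-sided and adjusted by the Benjamini-Hochberg method over all tested genes, with a threshold of 0.05. Fold changes on this scale understate those of low genes. Alternatives were edgeR 4.0.16 (quasi-likelihood), DESeq2 1.42.0 and limma-voom on the recovered reads, TMM and total-count scaling, pseudocounts of 0.1 and 10, other filters, a threshold of 0.01, and leaving out each library. The scripts were tested on simulated data. Lengths and codons are from GENCODE release 44 and promoters from RefSeq.

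Each list contributed by name its 3 strongest rises and 3 strongest falls at most, taken from called genes with an average signal of 50 or more, plus YAP1, WWTR1, ITGAV, ITGB1, ITGB5, LRP1 and LRP6, the nearest tested or overlapping genes within 100 kb, and the 3 nearest profiles. Members and lists were chosen with earlier results of these data known.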

Additional observations from a re-analysis of the deposited data

How the results depend on the processing

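CYR61, CTGF, NOV and WISP2 kept their direction and their side of the threshold in all 16 alternatives run. The log2 fold change ranged from -0.46 to -0.23 for CYR61 (-0.46 to -0.36 when 1 library was left out), from -1.57 to -1.32 for CTGF (-1.57 to -1.44), from -0.32 to -0.07 for NOV (-0.32 to -0.16, adjusted p from 0.35 to 0.81 by the tools named above) and from 3.80 to 4.11 for WISP2 (3.84 to 4.02). The number of lower genes ranged from 3955 to 5096 (4702 to 5096 when 1 library was left out) and that of higher genes from 4323 to 6156 (4585 to 5094). Total-count scaling lowered the number of lower genes from 5 to 3 among the receptors, from 10 to 6 among the regulators and from 5 to 2 among the IGFBP-module genes. No paired analysis was possible because, although the sample titles number both groups 1 to 3, the erlotinib columns are numbered 4 to 6 and could not be matched to those titles. Depth limits NOV, WISP1 and WISP3, and a single cell line at 1 time point was measured.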

Other observations

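Genes that share the IGFBP-like module with the CCN genes, most of which bind insulin-like growth factors, were also counted. Of 13 listed, 7 were tested, and 5 were lower and 2 higher (limma, adjusted p under 0.05), with a median log2 fold change of -0.35, and 2 were lower and 2 higher with total-count scaling. The background was 35.4% of tested genes lower and 35.3% higher, with a median of 0.02. IGFBP3, the most abundant, rose from 10185 ± 351 to 14652 ± 341 (SD, n = 3 each; log2 fold change 0.52, adjusted p = 1.5e-07). IGFBP4 fell from 733 ± 107 to 234 ± 42.4 (SD, n = 3 each; log2 fold change -1.65, adjusted p = 7.9e-10), and IGFBP1 from 380 ± 60.5 to 170 ± 48.9 (SD, n = 3 each; log2 fold change -1.19, adjusted p = 8.2e-06). KAZALD1 was at 0.76 (adjusted p = 0.012), a call lost without erlotinib library 4 (0.67, adjusted p = 0.060) or 5 (0.64, adjusted p = 0.068). IGFBP6 was at -0.37 (adjusted p = 0.019), a call lost with total-count scaling (-0.19). It was also lost without DMSO library 1 (-0.25) or 3 (-0.33) and without erlotinib library 4 (-0.33) or 6 (-0.31).

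Of 11 genes that WNT signalling induces as feedback, 5 were tested, and 3 were lower and 2 higher, or 2 lower and 2 higher with total-count scaling (limma; median log2 fold change -0.38). The background of 35.4% lower and 35.3% higher genes applies here too. RNF43, a ubiquitin ligase that removes WNT receptors, rose from 166 ± 23.7 to 536 ± 48.7 (SD, n = 3 each; log2 fold change 1.69, adjusted p = 5.7e-10). The secreted WNT inhibitor DKK1 fell from 1313 ± 123 to 734 ± 40.1 (SD, n = 3 each; log2 fold change -0.84, adjusted p = 5.3e-08), and TCF7 from 127 ± 12.4 to 49.9 ± 5.60 (SD, n = 3 each; log2 fold change -1.33, adjusted p = 1.6e-05). ZNRF3 was at -0.38 (adjusted p = 0.0028) and at -0.21 with total-count scaling (adjusted p = 0.093).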
